A study of Homo sapiens with 12 samples.

Results

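Cells given a scrambled control siRNA were compared with untransfected cells of the same line, the 8 arrays of these 2 groups out of 12 in the series. The cells were SKOV3ip, derived from SKOV3, a human line of ovarian cancer. In this bead array series, titled for the part of EZH2 in angiogenesis, 4 arrays held RNA of untransfected cells, 4 of cells given scrambled siRNA (sample names CTLsiRNA) and 4 of cells given an siRNA against EZH2. The last group enters here only in the filter for tested probes, in the shared model fit and as levels. These levels are set beside the genes that fell, the antiviral effectors, AGO2 and DICER1. No group was given transfection reagent without siRNA, so the reagent and the siRNA cannot be told apart. No label gives the siRNA sequence, its dose, the reagent or the time after transfection, or ties the 4 arrays of a group to separate cultures. The p-values therefore measure only how the arrays of a group vary, in part perhaps for technical reasons.

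A short double-stranded RNA enters Argonaute proteins and lowers mRNAs that match its guide strand, in full or through the short seed at the guide's 5′ end. Cells also carry sensors of double-stranded RNA: the receptor TLR3 in endosomes and the helicases RIG-I and MDA5 and the kinase PKR in the cytosol. Once engaged, the first 3 lead to transcription of type I or type III interferon and of NF-kB targets, and PKR slows translation by phosphorylating eIF2. Secreted interferon acts through JAK kinases on a complex that holds IRF9 and binds the interferon-stimulated response element in the promoters of antiviral genes.

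Among 10967 genes with at least 1 probe above background, 540 rose and 322 fell with control siRNA. The largest rises were in genes of the interferon response, and cytokines, stress genes and growth-factor genes rose too. Of 36 gene lists, that of G2 and mitosis held the most falls, each less than 2-fold. "Rose" and "fell" mean an adjusted p under 0.05 in limma over all 17297 tested probes, with a gene read from its brightest probe. That is a background of 4.92% of tested genes called higher and 2.94% called lower, or 6.52% of tested probes called in either direction. Levels below are log2 normalised intensities and differences are log2 fold changes. The rises reached further than the falls. At least 2-fold changes were found for 70 genes that rose and 20 that fell, and changes of at least 3 on the log2 scale for 6 that rose and 0 that fell. The median over all tested genes was 0.016. Among the 10967 tested genes, called or not, 1052 were higher and 685 lower without overlap between the groups. Lack of overlap was a condition for naming the largest rises and falls, so for those genes it adds no evidence. In bulk RNA, fewer cells with a transcript and less of it per cell cannot be told apart.

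The untransfected arrays had a mean raw signal of 299 ± 106 intensity units (SD, n = 4) and the control siRNA arrays one of 327 ± 41.7 (n = 4). The dimmest of the 8 arrays was untransfected array 4, with a mean of 157. Normalised arrays correlated across probes at 0.975 to 0.993 within a group and at 0.965 to 0.984 between groups. Of 15 epithelial and ovarian markers 13 were tested, against 4 of 10 endothelial, 3 of 10 fibroblast and 2 of 10 leukocyte markers. The number of arrays limits the precision, with a median standard error of 0.13 for a log2 fold change. When arrays were scaled by their 75th percentile instead of by quantiles, 198 genes were called higher and 42 lower, so that 82.5% of calls were rises against 62.6%. Leaving out control array 1, 3 or 4 left 349, 351 or 334 rises and 190, 202 or 196 falls, each fit having 1 array fewer.

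The promoters below come from RefSeq (GRCh38.p14) and span 250 bases before to 50 after the listed start of a gene. They are shown because 3 motifs, searched on both strands, were more frequent in the promoters of gene groups described here than among all promoters. The share of a gene list covers all its tested members, called or not, and describes the list rather than the response. The first motif is GAAANNGAA, a core of the interferon-stimulated response element. It was held by 73.3% of the promoters of tested interferon antiviral effectors (22 of 30). The share was 30.9% for genes that rose at least 2-fold (17 of 55) and 12.9% for all genes that rose (57 of 443). It was 6.23% for all tested genes and 8.32% for all 27305 promoters. Matches are in capitals, and overlapping matches run together. A match is a description of these letters and not a measured site. The 4 genes shown are the largest rises that hold it: MX1 at chr21:41420308-41420607 (plus strand), IFI27 at chr14:94110486-94110785 (plus strand), IFI6 at chr1:27672143-27672442 (minus strand) and ISG15 at chr1:1013247-1013546 (plus strand).
MX1: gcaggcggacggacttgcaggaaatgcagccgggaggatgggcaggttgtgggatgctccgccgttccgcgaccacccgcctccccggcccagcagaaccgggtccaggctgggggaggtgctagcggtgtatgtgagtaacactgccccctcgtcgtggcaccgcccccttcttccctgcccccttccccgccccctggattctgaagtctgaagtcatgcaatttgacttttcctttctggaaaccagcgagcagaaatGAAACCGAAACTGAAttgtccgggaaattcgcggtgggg
IFI27: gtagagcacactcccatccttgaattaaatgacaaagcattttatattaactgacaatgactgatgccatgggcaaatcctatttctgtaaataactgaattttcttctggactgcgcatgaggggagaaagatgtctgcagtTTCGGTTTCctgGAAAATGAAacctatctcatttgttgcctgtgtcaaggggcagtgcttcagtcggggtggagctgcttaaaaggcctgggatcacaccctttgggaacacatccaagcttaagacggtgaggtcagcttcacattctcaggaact
IFI6: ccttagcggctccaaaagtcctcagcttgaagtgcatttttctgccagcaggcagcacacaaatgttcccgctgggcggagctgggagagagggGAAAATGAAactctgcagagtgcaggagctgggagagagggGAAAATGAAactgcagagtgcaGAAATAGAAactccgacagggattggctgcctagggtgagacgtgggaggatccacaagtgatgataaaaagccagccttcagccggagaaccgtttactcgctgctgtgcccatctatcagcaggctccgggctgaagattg
ISG15: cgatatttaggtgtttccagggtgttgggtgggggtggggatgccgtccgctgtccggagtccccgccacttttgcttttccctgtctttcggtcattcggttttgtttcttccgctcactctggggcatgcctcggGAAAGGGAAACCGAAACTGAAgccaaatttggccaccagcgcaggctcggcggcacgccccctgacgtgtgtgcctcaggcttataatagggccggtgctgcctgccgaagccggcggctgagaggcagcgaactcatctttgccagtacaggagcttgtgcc

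MX1 held 2 overlapping matches just after its start, IFI27 2, IFI6 3 and ISG15 3 overlapping ones. The second motif was GGANTTTCC, a form of the NF-kB site. It was present in 45.5% of the promoters of tested cytokines and chemokines (5 of 11) and in 43.8% of those of NF-kB subunits and feedback genes (7 of 16), against 1.74% of the promoters of all tested genes and 1.67% of all promoters. Of the promoters of genes that rose, 5.64% held it (25 of 443), and of those that rose at least 2-fold, 14.5% (8 of 55). The cytokine CXCL8 at chr4:73740319-73740618, the phosphatase subunit gene PPP1R15A at chr19:48872171-48872470 and the cytokine IL6 at chr7:22726950-22727249 are shown, all on the plus strand.
CXCL8: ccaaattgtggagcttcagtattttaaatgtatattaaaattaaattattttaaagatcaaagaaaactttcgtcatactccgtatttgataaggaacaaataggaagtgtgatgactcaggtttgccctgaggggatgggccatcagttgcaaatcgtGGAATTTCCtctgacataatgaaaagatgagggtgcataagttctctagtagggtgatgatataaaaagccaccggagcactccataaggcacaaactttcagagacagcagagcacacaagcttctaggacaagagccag
PPP1R15A: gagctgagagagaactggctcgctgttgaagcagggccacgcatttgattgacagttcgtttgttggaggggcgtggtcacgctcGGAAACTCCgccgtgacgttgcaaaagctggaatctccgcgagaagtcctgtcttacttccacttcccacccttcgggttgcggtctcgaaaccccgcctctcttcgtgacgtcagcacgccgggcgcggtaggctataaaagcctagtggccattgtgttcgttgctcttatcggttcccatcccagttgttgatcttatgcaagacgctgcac
IL6: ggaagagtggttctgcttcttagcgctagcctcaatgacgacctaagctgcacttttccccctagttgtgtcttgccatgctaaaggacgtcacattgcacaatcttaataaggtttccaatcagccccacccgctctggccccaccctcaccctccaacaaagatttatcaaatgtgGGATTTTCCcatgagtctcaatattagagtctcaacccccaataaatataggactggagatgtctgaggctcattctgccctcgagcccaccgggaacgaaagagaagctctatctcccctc

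The third motif was TTTGAA, the cell cycle genes homology region that the DREAM and MuvB complexes bind in mitotic genes. Of the promoters of tested genes of G2 and mitosis, 66.7% held it (24 of 36), against 19.3% of those of genes that fell (50 of 259), 0% of those of genes that fell at least 2-fold (0 of 16), 10% of those of all tested genes and 15.5% of all promoters. The 6-letter motif is short and common. In the G2 and mitosis list KIF20A, the largest fall, held 0 matches, and TPX2, the next, had no promoter by symbol. NUSAP1, a spindle microtubule protein, at chr15:41332631-41332930 (plus strand) is shown.
NUSAP1: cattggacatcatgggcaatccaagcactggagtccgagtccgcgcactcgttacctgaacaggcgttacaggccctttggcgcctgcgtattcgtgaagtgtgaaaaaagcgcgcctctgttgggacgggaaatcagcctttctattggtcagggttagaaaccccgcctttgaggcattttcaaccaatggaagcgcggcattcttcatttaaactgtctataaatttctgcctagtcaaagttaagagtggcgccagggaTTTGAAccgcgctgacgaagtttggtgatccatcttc

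**Figure D1:**
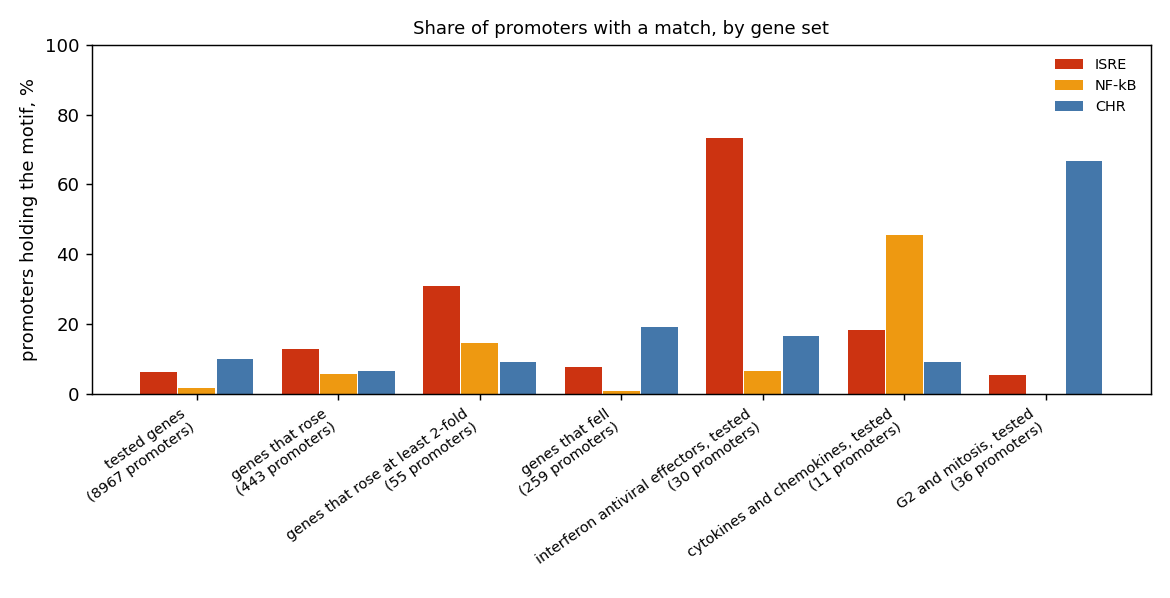
Share of promoters holding a match to each of the 3 motifs (vertical axis, percent) in 7 sets of tested genes, with the number of promoters in each set under its name. The interferon motif reached 73.3% in the antiviral effectors and the cell cycle motif 66.7% in genes of G2 and mitosis, against 6.23% and 10% of all tested genes.

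Sensors of foreign nucleic acid and their adaptors rose in part. Of 25 listed genes 19 were tested, 9 rose and 0 fell (median 0.31). The largest rise was that of IFIH1, which encodes the double-stranded RNA helicase MDA5. Its level was 6.21, 6.44, 6.13 and 6.19 in the 4 untransfected arrays and 7.28, 7.49, 7.23 and 7.61 in the 4 control siRNA arrays. The groups did not overlap, although only 1 untransfected array was above background (log2 fold change 1.16, SE 0.13, adjusted p = 3.61e-06). RIGI, encoding the related helicase RIG-I, had a smaller difference of 0.31 that did not pass the test (95% confidence interval 0.08 to 0.54, adjusted p = 0.0991). DHX58, the regulatory helicase LGP2, was above background on 0 untransfected and 4 control siRNA arrays and was at least 1.4-fold higher (adjusted p = 0.00356). Such bounds rest on the lowest signal above background and leave out the spread between arrays. DHX58 also passed the filter only through siRNA arrays, which favours a rise. PKR, encoded by EIF2AK2, rose by 0.59 with overlapping groups (adjusted p = 0.0408), and the editing enzyme ADAR, which modifies double-stranded RNA, by 0.46. On a second probe ADAR had 0.04 (adjusted p = 0.953).

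Among sensors and adaptors of other routes, MYD88, the adaptor of most Toll-like receptors, rose by 0.82. TICAM1, the adaptor of TLR3 also called TRIF, rose by 0.74, but a second probe for it had −0.07 (adjusted p = 0.899). STING1, the adaptor of cytosolic DNA sensing, went from 8.68, 8.65, 8.80 and 8.67 to 9.49, 9.53, 9.35 and 9.46, a rise of 0.76 with no overlap (adjusted p = 0.0025). The DNA sensor IFI16 rose by 0.65 and the ubiquitin ligase TRIM25, which acts on RIG-I, by 0.78 with overlapping groups. The remaining tested signalling genes of this list gave no call. MAVS, the mitochondrial adaptor of RIG-I and MDA5, differed by 0.22, and the kinases TBK1 and IKBKE by 0.04 and 0.17. The Toll-like receptor kinase IRAK1 differed by 0.08, and the ligases TRAF6 and TRAF3 by 0.03 and −0.24. The differences were 0.17 for the Z-form nucleic acid sensor ZBP1, −0.23 for the PKR activator PRKRA and 0.02 for TARBP2, a partner of Dicer. TLR3, TLR7, TLR8, TLR9, CGAS and AIM2 were below the filter. With the 75th percentile scaling 5 of the sensors rose, and TICAM1, IFI16, EIF2AK2 and ADAR lost their calls. Averaging the probes of a gene also ended the calls of ADAR and TICAM1, and ADAR was not called without untransfected array 2 or 4 or control array 3 or 4. EIF2AK2 lost its call without untransfected array 3 or 4 or control array 2, 3 or 4.

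None of the 9 interferon genes on the list was tested. IFNB1, IFNA1, IFNA2, IFNK, IFNE, IFNG, IFNL1, IFNL2 and IFNL3 all had probes that stayed below the filter, so a level or a difference of interferon mRNA itself was not detectable here. Downstream, 4 of 18 tested genes of interferon signalling rose and 0 fell (median 0.05), and with the 75th percentile scaling 2 did. IRF9, a DNA-binding subunit of the complex that interferon activates, stood at 7.88, 7.49, 7.41 and 7.35 in untransfected cells and at 10.75, 10.42, 10.46 and 10.73 with control siRNA. That is an 8.33-fold rise without overlap (3.06, SE 0.13, adjusted p = 9.63e-13). IRF7, a factor that amplifies interferon-alpha transcription, rose 2.97-fold, from 7.51 ± 0.11 to 9.08 ± 0.12 (SD, n = 4 each; adjusted p = 1.87e-08). IRF1, another interferon-induced factor, read 7.47, 7.69, 7.45 and 7.15 in untransfected cells and 8.71, 7.93, 8.80 and 9.12 with control siRNA, with control array 2 well under the other three. Its rise of 1.20 (adjusted p = 0.00311) lost its call with the 75th percentile scaling. The interferon-gamma receptor chain IFNGR2 rose by 0.40 (adjusted p = 0.0479), a call lost in most alternatives.

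The other tested receptor chains on that list and the receptor-bound kinases gave no call. The type I receptor chains IFNAR1 and IFNAR2 differed by 0.06 and −0.0039, the type III chains IFNLR1 and IL10RB by 0.17 and 0.34, and IFNGR1 by −0.23. JAK1, JAK2 and TYK2, the receptor-bound kinases, differed by 0.06, −0.09 and −0.14. STAT3 differed by 0.02, IRF2 by −0.09, IRF3 by −0.03 and BATF2 by 0.23. The feedback inhibitors SOCS1 and SOCS3 differed by 0.05 and −0.20. IRF5 and IRF8 were below the filter.

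The antiviral effectors held the 4 largest rises of all tested genes. Of 38 tested members 29 rose and 0 fell, with a median of 0.99 against 0.016 over all tested genes. Their mean level per array was 7.13 to 7.21 in untransfected cells, 8.27 to 8.45 with control siRNA and 8.56 to 8.59 with EZH2 siRNA. Members dark in untransfected cells, such as OAS2, OASL, RSAD2 and MX2, passed the filter only through siRNA arrays. That favours a rise, so their share in the count and the median is not evidence. With all 8 arrays required above background, 14 rises were counted among fewer tested members. MX1, a GTPase that traps viral nucleocapsids, had 6.82, 6.77, 6.80 and 7.19 in untransfected cells and 11.46, 11.22, 11.53 and 11.49 with control siRNA. All 4 control siRNA arrays stood far above all 4 untransfected arrays, of which array 4 was highest (23.1-fold, log2 fold change 4.53, SE 0.14, adjusted p = 4.67e-15, exact two-sided permutation p = 0.0286, the smallest that 4 against 4 arrays can give). IFI27, a mitochondrial and nuclear envelope protein widely used as an interferon marker, went from 7.02, 6.93, 6.91 and 7.0 to 11.11, 10.83, 10.90 and 11.08, a 16.1-fold rise without overlap (adjusted p = 4.67e-15). IFI6, a mitochondrial inhibitor of apoptosis that also restricts flaviviruses, read 9.20, 8.90, 8.73 and 8.59 before and 12.76, 12.47, 12.80 and 12.68 after, a 14.1-fold rise without overlap. A second IFI6 probe rose by 3.63.

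**Figure D2:**
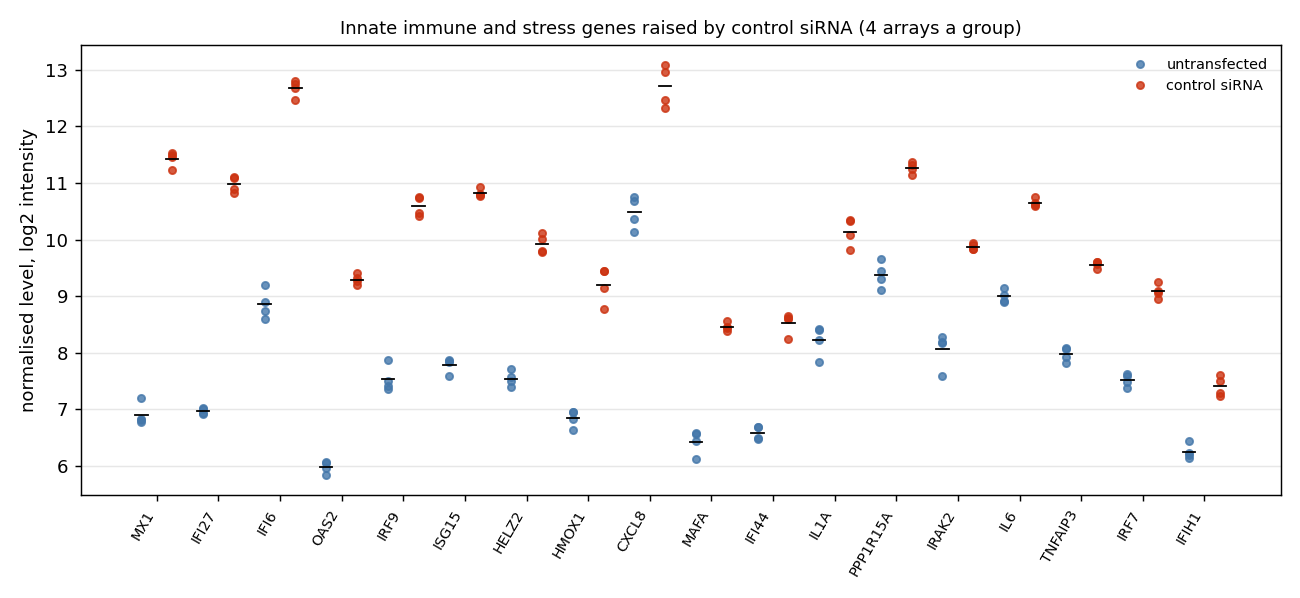
Normalised level (log2 intensity, vertical axis) of 18 genes on each of the 4 untransfected and 4 control siRNA arrays, with black bars at the group means. No gene shown has overlapping groups, from MX1 (6.90 against 11.43) at the left to IFIH1 (6.24 against 7.40) at the right. For the largest rises, the choice of genes required groups without overlap.

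Some effectors went from background to a signal above it. OAS2, an oligoadenylate synthetase that activates RNase L on sensing double-stranded RNA, was above background on 0 of 4 untransfected and on 4 of 4 control siRNA arrays. Its control siRNA levels were 9.26, 9.31, 9.40 and 9.19, against 6.06, 6.04, 5.84 and 5.96, at least 7.79-fold higher (adjusted p = 4.8e-13). Other OAS2 probes rose by 1.43 and 0.68, and the mean over its probes gave 1.81. RSAD2, encoding viperin, which makes a chain-terminating nucleotide, was at least 1.76-fold higher, the oligoadenylate synthetase-like OASL at least 1.7-fold and the GTPase MX2 at least 1.15-fold. The bound for RSAD2 rests on 6.08, 5.98, 6.25 and 5.99 against 7.11, 7.20, 7.08 and 7.18. HELZ2, an interferon-induced helicase that acts as a nuclear receptor coactivator, rose 5.26-fold, and IFI44 rose 3.85-fold, with control array 1 the lowest of its group at 8.24. Several effectors were dim in untransfected cells, and 14 rises were counted when a probe had to be above background on all 8 arrays. With each array's own background and a smaller offset, the differences of such dim genes were larger, reaching 5.31 for MX1 and 2.11 for IFIH1.

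All 5 tested genes of ISG15 conjugation rose (median 0.95). ISG15, the ubiquitin-like modifier itself, read 7.58, 7.83, 7.87 and 7.86 in untransfected cells and 10.77, 10.92, 10.79 and 10.80 with control siRNA. This 8.24-fold difference left the groups far apart (3.04, SE 0.13, adjusted p = 8.7e-13). Its conjugating enzyme UBE2L6 rose by 1.19, the ligases HERC6 and HERC5 by 0.95 and 0.45, and TRIM25, also listed with the sensors, by 0.78. The activating enzyme gene UBA7 was below the filter.

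Genes of antigen presentation on MHC class I rose in 5 of 16 tested cases and fell in 0 (median 0.30). The risen genes were the peptide transporter subunits TAP1 (0.94) and TAP2 (0.45), the immunoproteasome subunits PSMB9 (0.65) and PSMB8 (0.53) and the proteasome activator PSME2 (0.49). TAP1 read 9.41, 9.54, 9.63 and 9.29 before and 10.30, 10.37, 10.38 and 10.57 after, without overlap. Other probes for PSMB9 and PSMB8 disagreed in part, with 0.18 for PSMB9 (adjusted p = 0.585). PSMB8 lost its call without untransfected array 4 or control array 1. The list's count was 3 without control array 1, and 2 both with the 75th percentile scaling and with each array's own background. Of 13 tested interferon-induced PARP and TRIM genes 6 rose and 0 fell (median 0.42), led by the ADP-ribosyltransferases PARP10 (1.02), PARP9 (1.01) and PARP14 (0.88).

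Cytokines and chemokines rose in 9 of 15 tested cases and fell in 0 (median 0.53). CXCL8, the neutrophil chemoattractant interleukin 8, read 10.69, 10.13, 10.36 and 10.74 in untransfected cells and 12.46, 12.96, 13.09 and 12.33 with control siRNA. The groups were apart by more than either group's range (4.69-fold, 2.23, SE 0.18, adjusted p = 5.96e-08), and a second probe rose by 1.94. IL1A, an alarmin cytokine, rose 3.79-fold, from 8.39, 8.41, 7.84 and 8.23 to 9.82, 10.35, 10.32 and 10.07. IL6, an acute-phase cytokine, rose 3.15-fold, from 8.91, 8.90, 9.02 and 9.14 to 10.61, 10.75, 10.64 and 10.59. TNF rose by 1.22 and IL1B by 0.61, while the monocyte chemoattractant CCL2 had a difference of 0.0015 and the interferon-induced chemokines CXCL9, CXCL10 and CXCL11 were below the filter. These last 6 genes are named after their values were seen.

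NF-kB subunits and feedback inhibitors followed, with 8 of 19 tested genes raised and 0 lowered (median 0.22). The count was 5 without control array 3 and 5 with the 75th percentile scaling. TNFAIP3, the ubiquitin-editing inhibitor A20, read 8.07, 7.82, 8.07 and 7.92 before and 9.56, 9.60, 9.61 and 9.47 after, a 3-fold rise without overlap (1.59, SE 0.12, adjusted p = 1.62e-08). NFKBIZ, an atypical I-kappa-B that coactivates IL6, rose by 0.87 and the A20 partner TNIP1 by 0.71. A second NFKBIZ probe had 0.07 (adjusted p = 0.824). IRAK2, a kinase of Toll-like and interleukin 1 receptors, rose 3.52-fold, and its untransfected array 4, at 7.59, lay under the others at 8.17 to 8.27. Of 19 tested inflammatory effectors 6 rose and 0 fell (median 0.34), led by the urokinase gene PLAU (0.99), the factor CEBPB (0.99) and the metalloprotease MMP3 (0.72).

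**Figure D3:**
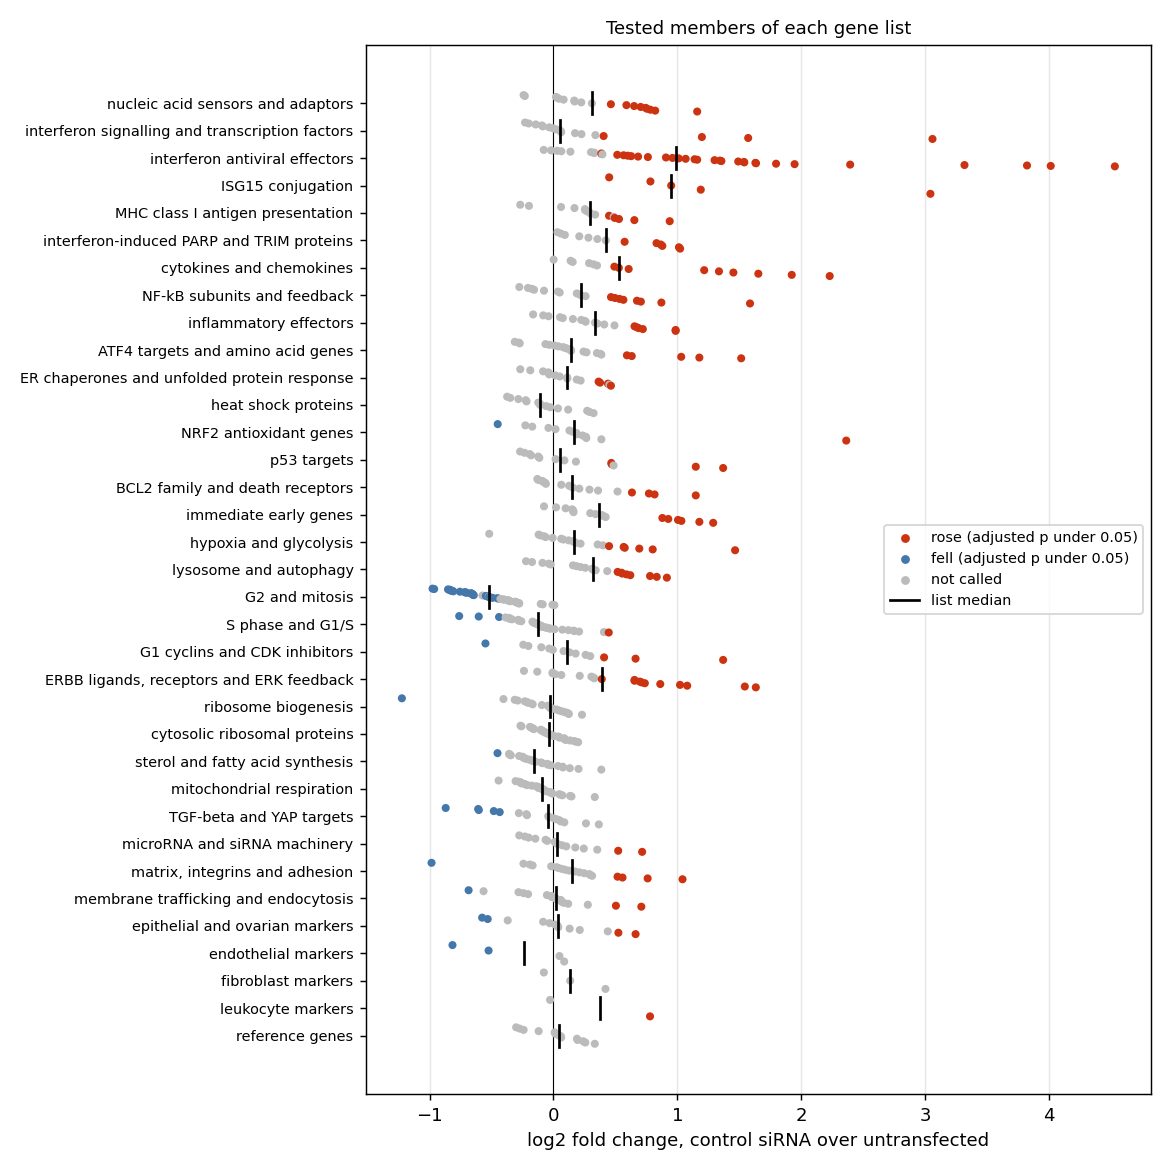
Log2 fold change, control siRNA over untransfected (horizontal axis), of every tested member of 35 gene lists, coloured by call, with a black bar at each list median. The antiviral effectors have the highest median (0.99) and the G2 and mitosis genes the lowest (−0.52), while ribosomal proteins and reference genes lie around 0.

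Stress genes split by pathway. PPP1R15A, which encodes GADD34, the subunit that directs a phosphatase to eIF2-alpha, read 9.44, 9.65, 9.30 and 9.10 in untransfected cells and 11.14, 11.24, 11.32 and 11.37 with control siRNA. It rose 3.72-fold without overlap (1.90, adjusted p = 2.39e-09). Of 23 tested ATF4 targets and amino acid genes 5 rose and 0 fell (median 0.14). They were the mTOR inhibitor DDIT4 (1.51), the factors ATF3 (1.18) and DDIT3, which encodes CHOP (1.03), the pseudokinase TRIB3 (0.63) and the tryptophanyl-tRNA synthetase WARS1 (0.59), which interferon also induces. With the 75th percentile scaling 3 did. Genes of amino acid supply on that list gave no call, with 0.24 for ASNS, −0.27 for PSAT1 and −0.31 for PHGDH, all named after their values were seen.

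HMOX1, the haem-degrading oxygenase, read 6.94, 6.83, 6.94 and 6.63 in untransfected cells and 9.44, 8.78, 9.14 and 9.43 with control siRNA. It rose 5.14-fold without overlap (2.36, adjusted p = 9.66e-10) and was the only rise among 14 tested NRF2 antioxidant genes, which had a median of 0.17. Without untransfected array 4 there were 2. The malic enzyme ME1 of the same list fell by 0.45, a call lost without untransfected array 1 and with the 75th percentile scaling. Of 17 tested genes of the endoplasmic reticulum and its unfolded protein response 4 rose by 0.36 to 0.46: the factor XBP1, the mannosidase-like EDEM1, the chaperone HSPA5 and the growth factor MANF. For XBP1 a second probe had 0.34 (adjusted p = 0.0888). Single arrays decided the 4 calls. Their count went to 0 without untransfected array 4, without control array 1 or 4 and with the 75th percentile scaling, to 1 without untransfected array 2 or control array 3, and to 2 without untransfected array 3 or control array 2. By limma 0 of 15 tested heat shock genes were called (median −0.11), although 2 were higher and 2 lower at an unadjusted p under 0.05. Array weights gave 1 rise and 2 falls there.

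Among genes that p53 can induce, 4 of 14 tested rose and 0 fell (median 0.05), and 2 rose both with the 75th percentile scaling and with each array's own background. CDKN1A, the cyclin-dependent kinase inhibitor p21, read 8.68, 8.78, 8.70 and 8.79 before and 10.04, 10.07, 10.22 and 10.10 after, 2.58-fold higher without overlap (adjusted p = 1.22e-07). A dimmer CDKN1A probe had 0.26 (adjusted p = 0.257), and the mean of both gave 0.81. TNFRSF10B, a receptor of the death ligand TRAIL, rose by 1.15 on its brightest probe, while its other probes had 0.42 (adjusted p = 0.0497) and −0.09. The nuclease AEN rose by 0.47, a call lost without control array 4. MDM2, BBC3 and FAS were below the filter, and BAX (−0.12), named after its values were seen, did not pass the test. In the BCL2 and death receptor list 4 of 18 rose and 0 fell (median 0.15), among them the inflammatory caspase CASP4 (0.82) and the survival factor MCL1 (0.77). For MCL1 a second probe had 0.28 (adjusted p = 0.169).

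Growth-factor signalling genes rose as a group of 11 among 21 tested, with 0 falls (median 0.39). DUSP5, a nuclear phosphatase of ERK, read 10.10, 9.66, 9.83 and 9.69 in untransfected cells and 11.52, 11.47, 11.45 and 11.37 with control siRNA, 3.1-fold higher without overlap (adjusted p = 7.03e-08). HBEGF, a ligand of the EGF receptor, rose 2.92-fold, from 8.77, 9.03, 9.03 and 8.99 to 10.53, 10.59, 10.37 and 10.51. ERRFI1, an inhibitor of that receptor, rose 2.11-fold. Immediate early genes rose in 6 of 18 tested cases (median 0.37), with the mRNA-destabilising protein ZFP36 at 1.29 and the factor KLF4 at 1.03. MAFA, a beta-cell and lens factor that was above background on 3 of 4 untransfected arrays, rose 4.09-fold, from 6.44, 6.58, 6.55 and 6.12 to 8.39, 8.44, 8.43 and 8.57.

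Hypoxia and glycolysis genes rose in 6 of 21 tested cases (median 0.17), and lysosome and autophagy genes in 8 of 21 (median 0.32). Neither list had a fall, except 1 in the former without untransfected array 1. NDRG1, a hypoxia- and stress-induced gene, rose 2.76-fold, from 7.67, 7.70, 7.52 and 7.43 to 9.16, 8.71, 9.17 and 9.14, with control array 2 the lowest of its group. The hexokinase HK2 and the glucose transporter SLC2A1 rose by 0.80 and 0.69. The sialidase NEU1, the autophagy receptor SQSTM1 and the protease CTSB rose by 0.92, 0.83 and 0.78. On a second probe CTSB had 0.48 (adjusted p = 0.0713). With the 75th percentile scaling the counts were 1 and 4.

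Genes of G2 and mitosis fell. Of 44 tested genes 25 fell and 0 rose, with a median of −0.52, and their mean level per array was 9.72 to 9.90 in untransfected cells, 9.24 to 9.34 with control siRNA and 9.07 to 9.25 with EZH2 siRNA. KIF20A, a kinesin of cytokinesis, read 9.69, 9.62, 9.86 and 9.79 in untransfected cells and 8.60, 8.76, 8.85 and 8.85 with control siRNA. The groups did not overlap, and KIF20A fell by 0.98 (SE 0.13, adjusted p = 5.32e-05). TPX2, which activates Aurora A on the spindle, read 9.87, 9.75, 10.48 and 10.73 before and 9.38, 9.41, 9.21 and 8.98 after, with untransfected arrays 3 and 4 well above arrays 1 and 2 (a fall of 0.96, adjusted p = 0.00158). NUSAP1, the holder of the cell cycle motif shown above, read 10.81, 10.77, 10.26 and 10.37 before and 9.69, 9.79, 9.64 and 9.68 after, a fall of 0.85 that a second probe repeated with −0.89. None of the 44 was 2-fold lower. The count of falls depends on the scaling between arrays: it was 1 with the 75th percentile scaling, and 16 without control array 4. KIF20A and NUSAP1 lost their calls with that scaling, where their differences were still below 0.

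**Figure D4:**
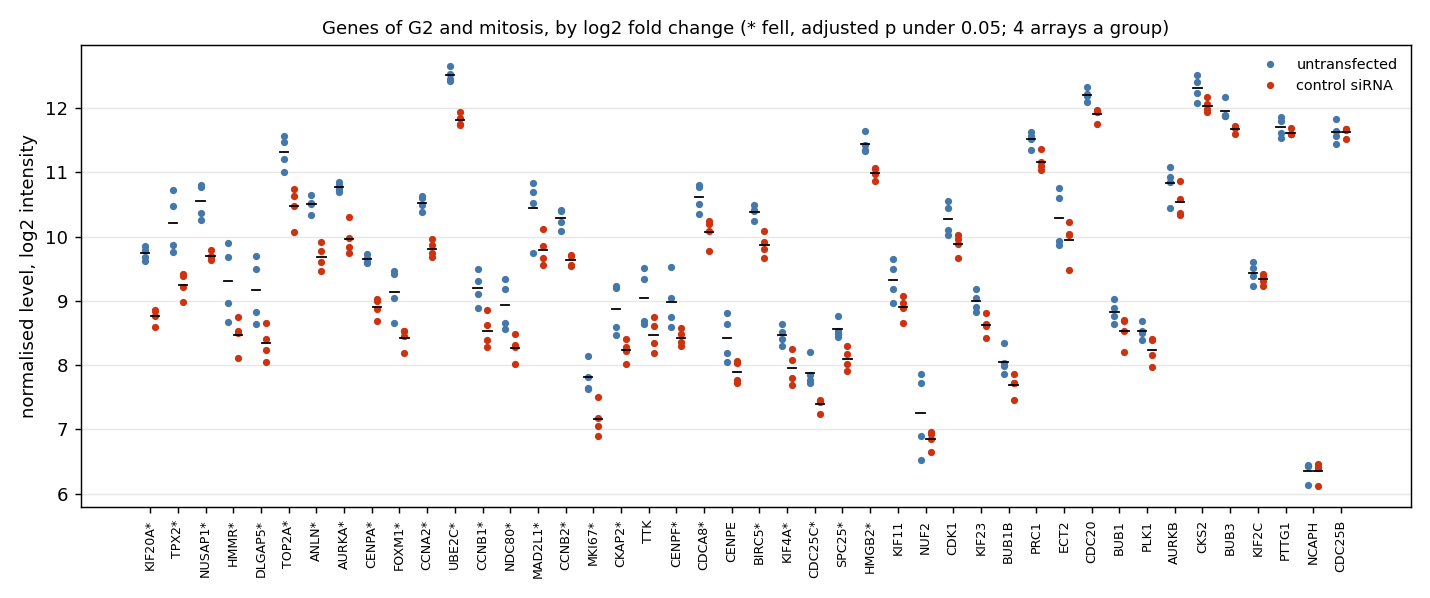
Normalised level (log2 intensity, vertical axis) of the 44 tested genes of G2 and mitosis on the 4 untransfected and 4 control siRNA arrays, ordered by log2 fold change, with black bars at the group means and an asterisk on the 25 that fell. The control siRNA arrays lie lower by up to 0.98 at the left, and the groups overlap at the right.

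In the list of S phase and G1/S genes 3 of 36 tested fell and 1 rose (median −0.13). They were the ribonucleotide reductase subunit RRM2 (−0.76), the polymerase subunit POLE2 (−0.60), the primase subunit PRIM1 (−0.44) and the origin recognition subunit ORC6 (0.45). For ORC6 a second probe had 0.21 (adjusted p = 0.439). Without untransfected array 4, control array 1 or control array 4 the falls numbered 1, with the 75th percentile scaling 0, and the ORC6 call was lost in most alternatives. Of 14 tested G1 cyclins and CDK inhibitors 3 rose, 1 fell and 10 were not called (median 0.11). The G1 cyclins CCND1 (0.66) and CCND2 (0.41) rose along with CDKN1A. The pocket protein RBL2 fell by 0.55, a call lost without untransfected array 4 and without control array 1, 3 or 4. By limma 0 of 30 tested ribosomal protein genes were called (median −0.04), with 0 higher and 1 lower at an unadjusted p under 0.05. Mitochondrial respiration likewise gave 0 calls among 30 (median −0.09), with 1 and 3 at that p, and 1 fall without untransfected array 3. That list does not hold the respiratory complex III gene UQCRH, which is among the largest falls described below. Over all 17297 tested probes, 3350 had an unadjusted p under 0.05. In ribosome biogenesis 1 of 23 genes fell, NOLC1 (2 fell without untransfected array 2), and in sterol and fatty acid synthesis 1 of 24, the isomerase IDI1 (−0.45, lost without any 1 of the control arrays and without untransfected array 1 or 2). Targets of TGF-beta and YAP fell in 5 of 17 cases, among them the matrix protein THBS1 (−0.87), the tropomyosin TPM1 (−0.61) and the matricellular CCN1 (−0.60). That count was 1 without control array 4, 2 without untransfected array 3 or control array 3, 3 without untransfected array 4 or control array 1 or 2, and 0 with the 75th percentile scaling. Other TPM1 probes had −0.65, −0.07 and 0.19.

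The machinery that handles small RNAs gave 2 rises and 0 falls among 16 tested genes (median 0.03). AGO2, the Argonaute that cleaves targets of a fully matched guide, read 8.46, 8.66, 8.61 and 8.85 in untransfected cells and 9.25, 9.32, 9.37 and 9.49 with control siRNA. It rose by 0.72 without overlap (adjusted p = 0.00158). DICER1, which cuts precursors into small RNAs, rose from 7.63, 7.83, 7.59 and 7.36 to 8.21, 8.20, 8.16 and 7.95, by 0.52 (adjusted p = 0.0118), and lost its call with the 75th percentile scaling. On a second probe DICER1 had 0.46 (adjusted p = 0.0987). With EZH2 siRNA neither gene stood higher than in untransfected cells. The mean level of AGO2 was 8.64 untransfected, 9.36 with control siRNA and 8.54 with EZH2 siRNA. For DICER1 the means were 7.60, 8.13 and 7.47. The difference between the siRNA groups was not tested. The siRNA was labelled as scrambled, and EZH2 did not pass the test on its brightest probe: 7.95, 7.77, 7.86 and 8.36 against 7.47, 7.67, 7.73 and 7.36. The groups did not overlap (−0.43, adjusted p = 0.0876). Its other probes had −0.62 (adjusted p = 0.0192) and −0.42 (adjusted p = 0.126).

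The 20 mRNAs that fell at least 2-fold with the scrambled siRNA were of mixed function. Their groups did not overlap, which was a condition for naming them. TPM4, an actin-binding tropomyosin, read 9.11, 9.08, 9.72 and 9.96 in untransfected cells and 7.76, 8.08, 7.94 and 7.79 with control siRNA. It fell by 1.58 (2.98-fold lower, SE 0.16, adjusted p = 1.86e-06), and a second probe by 1.41. The EZH2 siRNA arrays read 9.03, 9.05, 9.17 and 9.0, above all 4 control siRNA arrays and within the untransfected range or just under it. CYP1B1, a monooxygenase of the aryl hydrocarbon receptor pathway, read 11.20, 10.93, 10.88 and 11.08 untransfected and 9.32, 9.59, 9.43 and 9.92 with control siRNA. With EZH2 siRNA it stood between, at 10.48, 10.77, 10.21 and 10.81. PRSS23, a serine protease, was also between, with 8.66 ± 0.21 untransfected, 7.22 ± 0.27 with control siRNA and 8.02 ± 0.15 with EZH2 siRNA (SD, n = 4 each).

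NOLC1, a nucleolar phosphoprotein that helps assemble RNA polymerase I and snoRNA complexes, read 9.06, 8.98, 9.16 and 8.92 untransfected and 7.89, 7.75, 7.89 and 7.70 with control siRNA. It fell by 1.22, and the EZH2 siRNA arrays, at 8.75 to 9.07, overlapped the untransfected arrays. The same position of the EZH2 siRNA arrays was seen for CHST14, a dermatan sulfotransferase (8.51 to 8.87), ELFN2, a phosphatase-binding membrane protein (8.84 to 9.22), HABP4, an RNA-binding protein (8.72 to 9.12), and the palmitoyltransferase ZDHHC16 (10.08 to 10.34). With control siRNA these 4 had fallen by 1.17, 1.09, 1.08 and 1.03. A second ELFN2 probe had −0.11 (adjusted p = 0.694), and the mean of both gave −0.60. Second probes for HABP4 and ZDHHC16 fell by less than 2-fold, with −0.88 and −0.73.

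For other falls the EZH2 siRNA arrays lay below all control siRNA arrays. IGFBP3, a secreted carrier of insulin-like growth factors, read 11.92, 11.76, 12.38 and 12.16 untransfected, 10.54, 10.55, 10.55 and 10.51 with control siRNA and 9.89, 9.53, 10.14 and 9.73 with EZH2 siRNA. Its fall of 1.52 with control siRNA (adjusted p = 5.51e-07) was matched by a second probe with −1.37. ESM1, the endothelial proteoglycan endocan that some tumours also secrete, fell by 1.53, from 9.67 ± 0.20 to 8.14 ± 0.07, and stood at 7.67 ± 0.19 with EZH2 siRNA (SD, n = 4 each). CLDN11, a tight-junction claudin, fell by 1.35, the sphingosine 1-phosphate receptor S1PR1 by 1.26 and the vitamin D hydroxylase CYP24A1 by 1.02, and their EZH2 siRNA means were 8.40, 7.26 and 7.46 against 9.05, 7.51 and 8.06 with control siRNA.

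In the remaining falls the EZH2 siRNA and control siRNA arrays overlapped. ARHGDIB fell by 1.37, and IGFBP4, a further carrier of insulin-like growth factors, by 1.23. PLAC8 fell by 1.16, the mitochondrial carrier UCP2 by 1.12 and the LIM-domain cofactor LMO4 by 1.12. Second probes for PLAC8 and LMO4 fell by less than 2-fold, with −0.65 and −0.98. UQCRHL and UQCRH fell by 1.16 and 1.15. UQCRH encodes the hinge subunit of respiratory complex III and UQCRHL is its near-identical copy, so these probes may read the same transcripts and count as uncertain. Both and LMO4 lost their calls with the 75th percentile scaling. The difference between the EZH2 siRNA and control siRNA groups was not tested here for these genes.

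**Figure D5:**
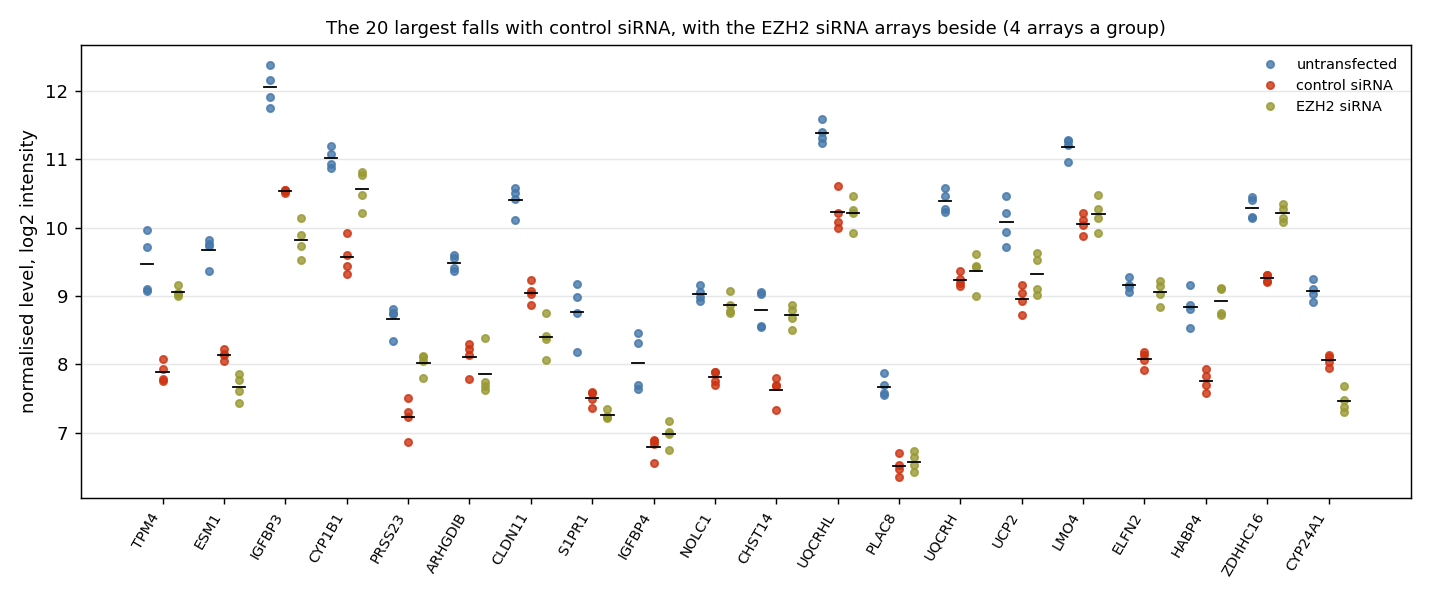
Normalised level (log2 intensity, vertical axis) of the 20 largest falls on the 4 untransfected, 4 control siRNA and 4 EZH2 siRNA arrays, with black bars at the group means. All control siRNA arrays lie below all untransfected arrays, which the choice of genes required, and the EZH2 siRNA arrays range from the untransfected level (NOLC1, ZDHHC16) to below the control siRNA level (IGFBP3, CYP24A1).

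In all, 18 genes were above background on 0 of 4 untransfected and 4 of 4 control siRNA arrays, and 8 of these passed the test. Besides OAS2, RSAD2, OASL, DHX58 and MX2 they were the minor spliceosomal RNA gene RNU6ATAC (at least 1.22-fold higher), the tubulin-like TUBAL3 (at least 1.21-fold) and the NADPH oxidase activator NOXA1 (at least 1.17-fold). In the opposite direction were 5 genes, of which the pseudogene ZNF204P passed the test (at least 1.28-fold lower). The zinc finger gene ZNF761, the ephrin receptor EPHA4 and the RNA-binding RBMS3 did not pass it, with differences of −0.38, −0.35 and −0.35. These are small differences near background. RNU6ATAC, TUBAL3, NOXA1, MX2 and ZNF204P lost their calls with the 75th percentile scaling. RNU6ATAC and TUBAL3 also lost them without control array 1, MX2 without untransfected array 1 or 2 or control array 3, ZNF204P without untransfected array 1 or 4 or control array 1, 2 or 4, and NOXA1 without any 1 of the 8 arrays.

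Of 20 tested matrix and adhesion genes 4 rose, led by the integrin ITGA5 (1.04) and the laminin LAMB3 (0.76), and 1 fell, the adhesion molecule L1CAM. L1CAM read 8.17, 7.78, 8.81 and 9.56 untransfected and 7.67, 7.81, 7.50 and 7.41 with control siRNA. Its groups overlapped, a second probe had 0.19, and its call was lost without untransfected array 3 or 4 and without control array 1, 3 or 4. The rises of this list numbered 2 without untransfected array 4 or control array 4, and 1 with the 75th percentile scaling, under which LAMB3 lost its call. Among 18 trafficking genes the endocytic recycling gene EHD1 (0.71) and the late endosome GTPase RAB7A (0.50) rose, RAB7A not without control array 3, and caveolin CAV1 fell by 0.68. The falls numbered 2 without untransfected array 1 or 3, and the scaling left 0 rises and 0 falls among the trafficking genes. Of the 13 tested epithelial and ovarian markers PAX8 (0.66) and MSLN (0.52) rose and FOLR1 (−0.58) and KRT7 (−0.53) fell. Other PAX8 probes had 0.75 (adjusted p = 0.00259) and 0.21 (adjusted p = 0.378). The MSLN call was lost without untransfected array 1, 3 or 4 and without control array 1, 3 or 4, and the KRT7 call without control array 1 or 3. Under the same scaling 1 of these markers rose and 0 fell. ENG (−0.81) and TIE1 (−0.52) fell among 4 tested endothelial markers and 0 of 3 fibroblast markers were called, while CDH5, VWF, KDR and TEK were below the filter. CD68, a lysosomal protein of macrophages that other cells make too, rose by 0.78 on its brightest probe. Its other probes had 0.46 (adjusted p = 0.0106) and 0.14 (adjusted p = 0.648). The leukocyte markers PTPRC, CD14 and ITGAM were below the filter. By limma the 14 tested reference genes gave 0 calls (median 0.05), with 2 higher and 2 lower at an unadjusted p under 0.05.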

How the data were processed

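RNA of SKOV3ip cells was measured on 12 Illumina bead arrays, 4 in each of 3 groups taken from the sample labels. The labels name 2 array types, HumanHT-12 and Human-6 version 3. The authors deposited a raw table with an intensity for each probe on each array. BeadStudio 3.2 made it, per the submitters' processing notes, and its background setting is not given in the sources used here. A deposited table of log2 values equals the quantile-normalised log2 of the raw intensities to within 5e-05. It was used as an alternative, and 0 sample columns of either table stayed unused.

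The normexp correction (offset 50) and then quantile normalisation were applied to the raw intensities with limma 3.58.1 (R 4.3.3). The offset shrinks differences of dim probes. The files hold no detection p-values. Background was therefore taken per array as the mode of the log2 signal, with the spread below it mirrored above. A probe was tested if above it at p under 0.01 on at least 4 of 12 arrays, whatever their group, which kept 17297 probes and left out 31506. One symbol was given for 28098 probes, several for 13 and none for 20692. A gene was read from its brightest tested probe. The model (lmFit, eBayes) held all 12 arrays in 3 groups, and p-values were adjusted (Benjamini-Hochberg) over all tested probes. The pipeline was checked on simulated data. A lower bound ("at least N-fold") sets the mean of one group against, for each array of the dim group, the higher of the probe's value and the lowest signal above background. It holds no sampling error, so a confidence interval can start below it.

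The genes, lists and tests were chosen with earlier results of these data known. Genes are named if among the 14 largest rises or 20 largest falls without overlap between groups, up to 3 called genes a list (5 or fewer called genes of a list may all be named), all members of 3 interferon and sensor lists, the largest bounds among genes that crossed the background, or EZH2; others are marked. Promoters were matched by symbol for 8967 of 10967 tested genes, from the start listed furthest upstream, and printed for those with the largest changes among called named genes with a match (4, 3 and 1 for the 3 motifs). For TTTGAA, printing was restricted to genes of G2 and mitosis after the matches were seen. The main model did not pair arrays by replicate number. Deviations of same-numbered arrays correlated at −0.38 to −0.11. Differences in array brightness can enter such deviations, so these values cannot exclude that same-numbered arrays shared a culture or batch. Figures were drawn with matplotlib 3.10.9.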

Additional observations from a re-analysis of the deposited data

Results flagged for a closer look

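Among 294 sets of 4 arrays, 14 held an array whose distance to its nearest neighbour took up more of the group's range than Dixon's critical value allows, a limit that chance passes in about 1 of 20 sets. In untransfected cells, array 4 was highest for MX1 (7.192), PSMB9 (7.249) and AEN (9.214) and lowest for IRAK2 (7.592). Array 1 was lowest for ISG15 (7.577), and array 3 was lowest for PRSS23 (8.348) and POLE2 (8.561). With control siRNA, array 1 was lowest for IFI44 (8.241) and array 2 was lowest for XBP1 (10.78), NDRG1 (8.71) and NEU1 (8.019). Control array 4 was lowest for IGFBP4 (6.558) and TRAF3 (7.02) and highest for TIE1 (6.706).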

How the results depend on the processing

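Of the 117 called genes that the naming rule chose, 75 kept direction and call under all 22 alternatives in which they were tested, and 0 turned sign. Under a 75th percentile scaling 42 lost the call, when each array had its own background, with an offset of 16, 15 did, and under each other alternative 0 to 16 did. The cause was not tested. The main count of 1128 called probes (673 higher, 455 lower) became 310 under the 75th percentile scaling (252 and 58), 1867 with array weights (1040 and 827) and 528 at an adjusted p under 0.01 (336 and 192). It was 680 to 1000 when 1 array was left out (417 to 577 higher, 263 to 425 lower). With own background and offset 16, 299 probes were called lower. Of probes called at least 2-fold there were 107 (25 lower); own background gave 245 (71 lower), the 75th percentile scaling 16 lower, and leaving out 1 array 105 to 117 (26 to 33 lower). The 29 rises of antiviral effectors became 14 when a probe had to be above background on all 8 arrays, which by construction tests fewer genes, and 26 to 28 without 1 array. The 25 falls of G2 and mitosis genes became 1 under the 75th percentile scaling, 12 at an adjusted p under 0.01 and 16 to 24 without 1 array. With the replicate number as a block, 1065 probes were called (635 higher, 430 lower), a change of under 1.5 times. The block moved 3 list counts by more, from 4 to 1 rises for the endoplasmic reticulum genes, from 2 to 1 for the epithelial and ovarian markers and from 1 to 0 falls for sterol and fatty acid synthesis. Deviations of same-numbered arrays did not correlate positively, which cannot exclude a shared culture or batch.

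Values that turned sign belonged to 11 genes without a call. MAVS was −0.080, TBK1 −0.023, SOCS1 −0.011 and IFNAR2 0.10 when arrays with a mean raw signal under 250 were left out. With array brightness as a covariate TBK1 was −0.029 and IFNAR2 0.052, and with array weights IFNAR2 was 0.063. TARBP2 was −0.0068 with cyclic loess. Under the 75th percentile scaling IFNAR2 was 0.14, TYK2 0.034 and IRF3 0.12. Over the mean of a gene's probes IFNAR2 was 0.19 and STAT3 −0.033. Leaving out 1 array at a time gave −0.080 to 0.39 for MAVS, −0.067 to 0.18 for TBK1, −0.017 to 0.080 for TRAF6, −0.091 to 0.099 for TARBP2, −0.013 to 0.14 for IFNAR1, −0.079 to 0.10 for IFNAR2, −0.078 to 0.19 for JAK1, −0.089 to 0.14 for STAT3, −0.097 to 0.0084 for IRF3 and −0.011 to 0.13 for SOCS1. Depth here is signal over background, and it limits all genes whose untransfected arrays were not above it.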
